A study of Homo sapiens with 2 samples.

Results

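The 9 genes GPI, PFKL, ALDOA, TPI1, GAPDH, PGK1, PGAM1, ENO1 and PKM encode the abundant enzymes that carry glucose phosphate down to pyruvate. They were picked by symbol, and all 9 of them were found among the 25343 gene entries. The study grew Huh7 cells, an established line from a well differentiated human hepatocellular carcinoma, for 6 days at a glucose concentration of 4.5 g/L (high glucose) or of 0.45 g/L (low glucose). Both cultures were seeded at 500000 cells per well, were kept in serum-supplemented DMEM, and were passaged near confluence with live cells only. No gene was altered in either culture, and the glucose content is the only difference that the labels give. Each medium is represented by 1 library, so there is no measure of variation between cultures, no test between media and no p-value. The values are TPM, a transcript abundance per library total, which correct for transcript length and sum to 1000000 in each library. Levels can therefore be compared between genes within a library, but because the total is fixed, more of some transcripts means less of the rest.

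Glycolysis splits glucose into pyruvate in the cytosol and yields ATP and NADH on the way. An upper phase (GPI, PFKL, ALDOA and TPI1) rearranges and splits the sugar phosphate, and a lower phase (GAPDH, PGK1, PGAM1, ENO1 and PKM) harvests energy from the triose phosphates. The adult liver uses a partly different set of isozymes, among them liver pyruvate kinase (PKLR), while liver cancer cells often express the widely used forms such as ALDOA and PKM. Several of these genes are known targets of the hypoxia-inducible factors and of MYC.

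The libraries had 17994 (high glucose) and 18036 (low glucose) entries above 0, and 13745 genes with a mean of at least 1 TPM were compared. The number of reads is not given. All 8 hepatocyte markers examined were among the compared genes, with a summed level of 39602 TPM under high and 33530 TPM under low glucose. AFP, a fetal and tumour marker, alone stood at 20859 and 16441 TPM, and ALB at 8528 and 7997 TPM. In low glucose 6 of the 8 stood lower, against 45.3% of all genes compared. Among genes with a mean of at least 100 TPM, a level that all 8 reached, 63.1% stood lower. FGB (617 and 927 TPM) and TF (1727 and 2315 TPM) stood higher. The 10 markers of leukocytes, endothelium and fibroblasts together held far less, from 2.14 TPM (endothelium, high glucose) to 42.1 TPM (leukocytes, low glucose) per cell type. None of them was at 0, and CD68 made up most of the leukocyte sum with 20.4 TPM under high and 39.3 TPM under low glucose. The other 3 leukocyte markers were lower in low glucose: CD14 stood at 3.04 and 2.26 TPM, PTPRC at 0.83 and 0.50 TPM and CD3E at 0.12 and 0.07 TPM. The 2 fibroblast markers that reached the level compared were both higher in low glucose. COL1A1 (1.06 and 4.03 TPM) was past 2-fold higher, as were 3.65% of all genes compared, and COL1A2 stood at 18.7 and 24.55 TPM. The endothelial marker PECAM1 stood at 1.35 and 1.25 TPM. Whether the RNA of other cells had a part in the results was not tested.

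All 9 enzyme genes stood lower in low glucose, and none was past 2-fold. Each difference below is log2(TPM + 1) under low glucose minus the same under high glucose. Their sum was 9542 TPM in high glucose, 0.954% of the library, and 6676 TPM in low glucose, 0.668%. Low glucose thus held 70.0% of the high glucose sum. Among all genes compared 45.3% stood lower, and among the 1748 genes with a mean of at least 100 TPM 63.1% did, so a lower value was common at the level of these enzymes. PFKL, with a mean of 99.9 TPM, lies just under that mark. In a bulk library, a lower level in each cell and fewer cells with a high level cannot be told apart.

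Start-site windows of the 9 genes are shown here because the genes stood lower together, and hypoxia factors and E-box factors such as MYC are known to bind short motifs near the starts of glycolytic genes. RefSeq (GRCh38.p14) gave 12 windows of 300 bases for the 9 genes, each with 250 bases before and 50 after an annotated start. In 8 of these windows, from 6 genes, GENCODE release 29 placed the start of a principal coding transcript. The windows of GPI, GAPDH and PGAM1 held no such start; the start site lay 510 bases downstream of the nearest one for GAPDH and 1658 bases downstream for PGAM1. For GPI it lay 135 bases upstream. These windows are not printed. The 4 windows printed are from PGK1 (chrX:78103998-78104297, plus strand), ALDOA (the most downstream of 3 windows, chr16:30065510-30065809, plus strand), ENO1 (chr1:8878637-8878936, minus strand) and PKM (chr15:72231141-72231440, minus strand). Their annotated start lay within 1 base of a principal start for ALDOA and ENO1, and 74 (PGK1) and 196 (PKM) bases downstream of it for the others. Capitals mark ACGTG, a form of the core of the hypoxia response element, and GGGCGG, the GC box bound by SP1-type factors. Both were searched on both strands. The other form of that core, GCGTG, was not searched or marked, so a window without ACGTG may still hold it.
PGK1: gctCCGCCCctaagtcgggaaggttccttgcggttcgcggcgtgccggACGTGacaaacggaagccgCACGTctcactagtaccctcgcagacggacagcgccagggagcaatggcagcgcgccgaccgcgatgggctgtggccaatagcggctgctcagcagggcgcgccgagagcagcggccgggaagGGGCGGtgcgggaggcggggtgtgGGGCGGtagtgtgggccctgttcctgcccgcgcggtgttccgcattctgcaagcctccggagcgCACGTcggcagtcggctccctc
ALDOA: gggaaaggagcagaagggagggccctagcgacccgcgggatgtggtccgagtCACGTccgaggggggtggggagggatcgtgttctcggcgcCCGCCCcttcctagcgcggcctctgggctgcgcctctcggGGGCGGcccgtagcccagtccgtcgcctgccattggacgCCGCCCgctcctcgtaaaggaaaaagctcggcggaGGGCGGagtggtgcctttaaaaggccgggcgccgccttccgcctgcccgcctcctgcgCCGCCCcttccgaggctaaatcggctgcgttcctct
ENO1: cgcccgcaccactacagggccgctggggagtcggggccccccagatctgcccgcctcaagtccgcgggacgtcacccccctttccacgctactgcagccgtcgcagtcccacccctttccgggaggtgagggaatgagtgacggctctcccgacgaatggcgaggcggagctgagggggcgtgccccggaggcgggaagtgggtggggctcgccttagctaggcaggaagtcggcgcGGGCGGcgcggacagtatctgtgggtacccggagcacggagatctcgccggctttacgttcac
PKM: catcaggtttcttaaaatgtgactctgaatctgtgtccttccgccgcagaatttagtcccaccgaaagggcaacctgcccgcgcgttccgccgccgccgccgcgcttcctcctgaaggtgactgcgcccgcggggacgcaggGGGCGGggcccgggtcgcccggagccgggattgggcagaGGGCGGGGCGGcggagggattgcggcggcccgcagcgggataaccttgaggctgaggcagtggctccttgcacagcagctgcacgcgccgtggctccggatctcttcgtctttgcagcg

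These 4 windows differed in their motifs. PGK1 held ACGTG 3 times, at positions -202, -183 and 28 counted from the start site as 0, and the GC box 3 times. ALDOA held ACGTG 1 time, at position -198, and the GC box 5 times. ENO1 and PKM held no ACGTG in these windows, while the GC box occurred 1 time in ENO1 and 3 times in PKM. Over the 12 windows, ACGTG occurred in 7, from 5 genes (GPI, ALDOA, TPI1, GAPDH and PGK1), against 21.4% of the 34943 windows of all genes. Of the 8 windows that hold a principal start, 4 held ACGTG, from ALDOA and PGK1 only. The windows of PFKL and TPI1 with a principal start, not printed, held none. Windows of the same gene are not independent of each other. The E-box CACGTG, which holds ACGTG on both strands and so counts as 2 matches of it, occurred in 2 windows, of GAPDH and of the second start of ALDOA, against 7.23% of all windows. GGGCGG occurred in 9 of 12, against 44.9%. The CRE half-site TGACG occurred in 2 of 12 (ENO1 and the first ALDOA start, 24.5% of all windows), and TATAAA in 0 of 12 (11.6% of all windows). Only exact letters were searched, so near forms, such as TATATAAG in the first TPI1 window, were not counted. The 12 windows held from 53.33% (PGAM1) to 78.33% (PFKL) G and C, and the shares over all windows were not matched for base content. These are matches of letters only, and binding was not measured.

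The upper phase differed by less than 1.5-fold at every step. GPI, which converts glucose phosphate to fructose phosphate (chromosome 19, 34855645 to 34893318 on hg19, as are all gene positions below), stood at 128 TPM under high and 108 TPM under low glucose. PFKL, the liver-type subunit of phosphofructokinase and the committed step of the pathway (chromosome 21, 45719917 to 45747264), stood at 107 and 93.2 TPM. For these genes low glucose held 84.9% and 87.3% of the high glucose level, differences of -0.23 and -0.19. Neither reached 1.2-fold (0.263 on the log2 scale) in the deposited values, although GPI did under 3 scalings (-0.29 to -0.28).

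ALDOA, the aldolase that splits fructose bisphosphate into triose phosphates (chromosome 16, 30064411 to 30081741), stood at 977 TPM under high and 744 TPM under low glucose, a difference of -0.39. TPI1, which interconverts the triose phosphates (chromosome 12, 6976584 to 6980110), stood at 1123 and 811 TPM, a difference of -0.47. Both were past 1.2-fold lower. Summed over the upper phase, 2335 TPM in high glucose stood against 1757 TPM in low glucose, or 75.2%.

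The lower phase held the members with the largest differences. GAPDH, which oxidises glyceraldehyde phosphate and makes NADH (chromosome 12, 6643571 to 6647541), was the most abundant member in both media. It stood at 4755 TPM under high and 3140 TPM under low glucose, a difference of -0.60. GAPDH was the 8th most abundant entry of the high glucose library and the 20th of the low glucose library.

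PGK1, which makes ATP in the following step (chromosome X, 77359666 to 77382324), stood at 152 and 123 TPM, a difference of -0.30. PGAM1, the mutase that moves the phosphate group of phosphoglycerate (chromosome 10, 99186027 to 99193198), stood at 497 and 279 TPM. Its difference of -0.83 was the most negative of the 9, and low glucose held 56.1% of the high glucose level. It moved from rank 283 to rank 516 among all entries.

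ENO1, the enolase that makes phosphoenolpyruvate (chromosome 1, 8921059 to 8939151), stood at 1078 and 933 TPM, a difference of -0.21. PKM, the pyruvate kinase gene whose alternative splicing gives the M1 and M2 enzymes (chromosome 15, 72491370 to 72523727), stood at 726 and 444 TPM, a difference of -0.71. The deposited values are per gene, so the splice forms of PKM were not analysed here. The lower phase summed to 7208 TPM under high and 4919 TPM under low glucose, or 68.2%, and to 72.5% without GAPDH.

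**Figure D1:**
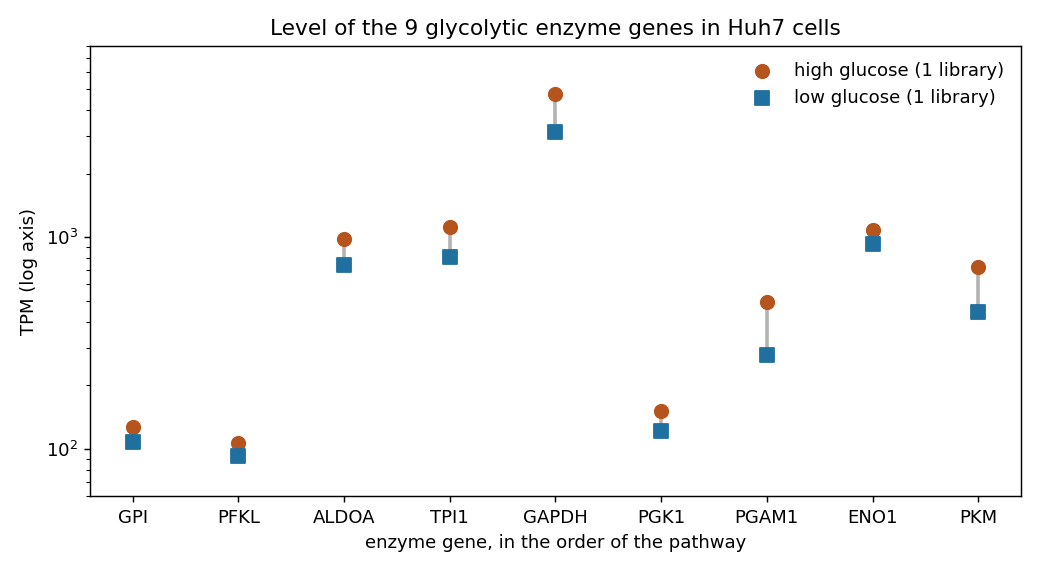
TPM of each enzyme gene (vertical log axis) in the high glucose library (circles) and the low glucose library (squares), in pathway order, with a grey line joining the 2 values of a gene. Every square lies below its circle, and the gap on this axis is widest for PGAM1 (497 and 279 TPM) and PKM (726 and 444 TPM).

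The order of the levels was nearly the same in both media. In high glucose it ran GAPDH, TPI1, ENO1, ALDOA, PKM, PGAM1, PGK1, GPI and PFKL, and in low glucose ENO1 and TPI1 traded places. The highest member exceeded the lowest by 44.6-fold in high and 33.7-fold in low glucose. With 1 library each, there is no spread by which to say whether neighbours such as TPI1 (1123 TPM) and ENO1 (1078 TPM) differ. GAPDH alone held 49.8% of the summed TPM of the 9 genes in high glucose and 47.0% in low glucose, and it made up 56.3% of the gap between the sums. Without it, the other 8 genes summed to 4788 and 3536 TPM, or 73.9%.

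Steps next to each other in the pathway did not keep a fixed ratio of transcripts. For every TPM of PGK1 there were 31.4 TPM of GAPDH in high glucose and 25.6 in low glucose. ENO1 exceeded PGAM1, the step before it, by 2.17-fold in high and 3.35-fold in low glucose. Over PKM, the step after it, ENO1 stood 1.49-fold higher in high and 2.10-fold higher in low glucose. By contrast, the ratio of ALDOA to TPI1 was 0.871 and 0.917, and GPI stood at 119.7% of PFKL in high and 116% in low glucose. ENO1 held 11.3% of the members' sum in high and 13.98% in low glucose, while PGAM1 held 5.21% and 4.18%.

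Across the 9 genes, the log2 of the mean level and the difference had a Pearson r of -0.43 and a Spearman rho of -0.35. This is a description over 9 genes of the same 2 libraries. The 3 least abundant members (PFKL, GPI and PGK1) had differences between -0.30 and -0.19, but so did the abundant ENO1.

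Set against other genes, the median difference of the 9 was -0.39. It was 0.05 over all genes compared and -0.14 over genes of at least 100 TPM. Past 1.2-fold lower stood 6 of the 9 (ALDOA, TPI1, GAPDH, PGK1, PGAM1 and PKM), against 22.3% of all genes and 38.2% of those of at least 100 TPM. Past 1.2-fold higher stood 0 of the 9, against 31.5% and 20.8%. Past 1.5-fold lower stood 3 of the 9 (GAPDH, PGAM1 and PKM), against 6.07% and 10.5%, and past 1.5-fold higher 0 of the 9, against 13.0% and 10.4%. On the log2 scale 1.5-fold is 0.585. Past 2-fold lower stood 0 of the 9, against 1.10% and 1.83%, and past 2-fold higher 0 of the 9, against 3.65% and 3.89%.

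The members spread over much of the lower part of that distribution. Among genes of at least 100 TPM, 3.55% had a difference as negative as that of PGAM1, and 5.61% as that of PKM. For GAPDH this share was 9.44%, for TPI1 18.1% and for ALDOA 25.1%. For PFKL (45.0%), ENO1 (43.4%) and GPI (40.3%) it was close to the middle of those genes. When the median of genes of like level was subtracted (20 level groups), an alternative chosen after the data were seen, all 9 stayed below 0, but the differences of ENO1 and PFKL shrank to -0.07 each. The median of the 9 was then -0.25. PGAM1 (-0.69) alone then passed 1.5-fold, as PKM stood at -0.57 and GAPDH at -0.46. GAPDH also fell short of 1.5-fold (-0.57) when the 50 most abundant genes were left out of the total.

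**Figure D2:**
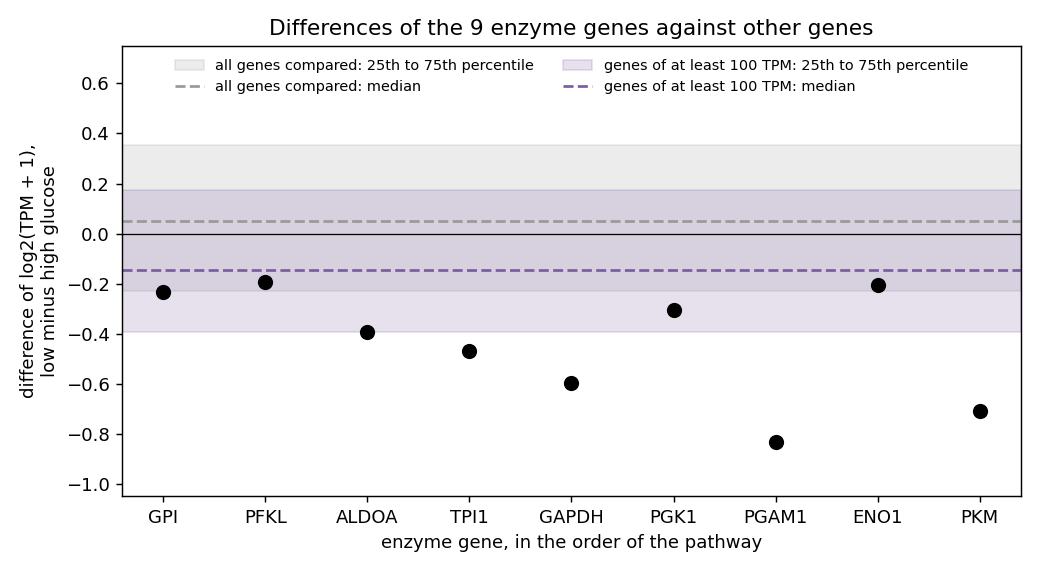
Log2(TPM + 1) under low minus that under high glucose for each enzyme gene (points, 1 library per medium) in pathway order. The grey and purple bands run from the 25th to the 75th percentile of all genes compared and of genes of at least 100 TPM, and dashed lines are their medians (0.05 and -0.14). TPI1, GAPDH, PGAM1 and PKM lie below both bands, while ENO1 and PFKL lie near the purple median.

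For most of these steps the isozymes added little transcript. Of 11 other isozymes, 5 reached the level compared: 3 stood lower, 2 higher and 1 of them past 2-fold. Among all genes compared, 45.3% stood lower and 3.65% were past 2-fold higher. PKM made up 97.9% of the pyruvate kinase transcripts in high and 98.3% in low glucose, and ENO1 97.4% and 96.0% of the enolase transcripts. The phosphofructokinase subunits were more mixed. PFKL made up 66.3% and 67.0% of their sum, with the muscle-type PFKM at 54.1 and 45.5 TPM and the platelet-type PFKP at 0.13 and 0.50 TPM.

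The liver pyruvate kinase gene PKLR stood lower, as did PKM. PKLR stood at 15.5 TPM under high and 7.46 TPM under low glucose (difference -0.96). The brain aldolase ALDOC stood at 12.6 and 9.21 TPM. The other enolases went the opposite way to ENO1, with the neuronal ENO2 at 0.78 and 5.27 TPM and the muscle ENO3 at 27.9 and 33.6 TPM. Summed with them, the enolase family differed by -0.19. GAPDHS, the germ cell form, was listed at 0 in both media, and PGK2, PGAM2, PGAM4 and ENO4 stood at no more than 0.13 TPM.

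Steps before the 9 enzymes stood higher in low glucose. Of 9 genes of glucose uptake and phosphorylation, 6 were compared, all 6 stood above 0 and 3 were past 2-fold higher, with a median of 0.91. Of all genes compared, 45.3% stood below 0 and 3.65% were past 2-fold higher. These 3 were the transporter SLC2A1 (31.4 and 99.0 TPM), the hexokinase HK2 (26.6 and 59.9 TPM) and the hexokinase-like HKDC1 (2.23 and 11.2 TPM). The ADP-dependent glucokinase ADPGK stood at 67.6 and 90.8 TPM.

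Steps after pyruvate were mixed. Of 10 exit genes 7 were compared, 3 below and 4 above 0, with a median of 0.15. LDHB (0.47 and 4.23 TPM) alone was past 2-fold. This is near the share over all genes compared, of which 45.3% stood below 0, and 3.65% were past 2-fold higher. LDHA, which turns pyruvate into lactate, stood at 818 and 504 TPM, a difference of -0.70 next to the -0.71 of PKM. The ratio of PKM to LDHA was 0.888 in high and 0.881 in low glucose. BSG, the chaperone of the lactate transporters, stood at 981 and 1093 TPM.

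Among 17 genes of side reactions, 15 were compared, with 11 below and 4 above 0 and a median of -0.20 (45.3% of all genes stood below 0 and 3.65% past 2-fold higher). PFKFB4, which makes the fructose bisphosphate that activates phosphofructokinase, was the 1 past 2-fold (11.6 and 30.4 TPM). Its relative PFKFB3 stood at 75.7 and 117 TPM. PGM1, which links glycolysis to glycogen, stood at 61.8 and 37.3 TPM.

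**Figure D3:**
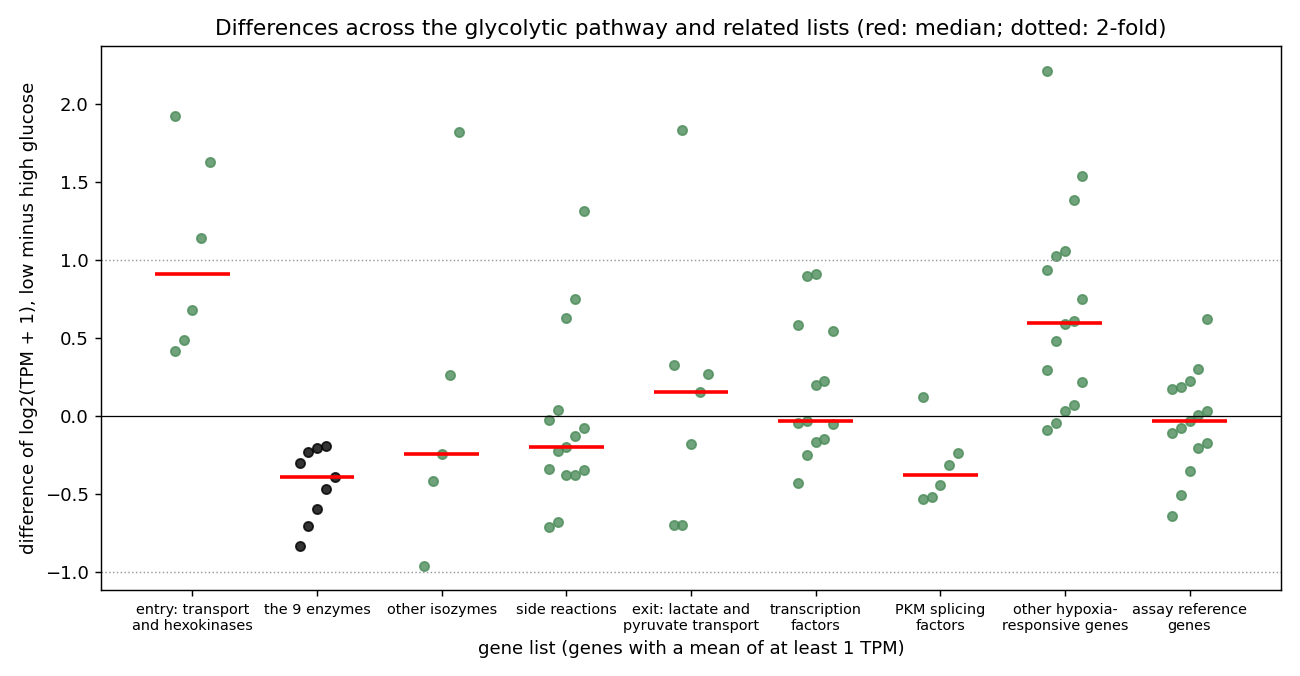
Log2(TPM + 1) under low minus that under high glucose for each gene with a mean of at least 1 TPM in 9 lists (points, 1 per gene, spread sideways for legibility). Red bars are list medians and dotted lines mark 2-fold. The 9 enzymes (black) all lie between -0.83 and -0.19, while the 6 entry genes all lie above 0 with a median of 0.91.

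Transcripts of the factors known to control these genes did not share a direction. Of 13 transcription factor genes, 7 stood below and 6 above 0, none past 2-fold, with a median of -0.03. HIF1A, the oxygen-regulated subunit of the hypoxia factor, stood at 193 and 174 TPM, and MYC at 105 and 198 TPM. Of 17 other hypoxia-responsive genes, outside glycolysis, 16 were compared: 14 stood above 0 and 5 were past 2-fold higher, with a median of 0.60 (all genes: 45.3% below 0, 3.65% past 2-fold higher). BHLHE40 (15.7 and 76.6 TPM), VEGFA (67.4 and 197 TPM), PDK1 (8.10 and 22.8 TPM) and P4HA2 (48.9 and 103 TPM) were past 2-fold with at least 10 TPM in low glucose; the most abundant by mean TPM, BNIP3 (188 and 197 TPM) and NDRG1 (158 and 149 TPM), stood near level. The activity of these factors was not measured.

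The 6 genes for RNA-binding proteins and a kinase tied to the choice of PKM exon had a median of -0.38, with 5 below and 1 above 0 and none past 2-fold. Among genes of at least 100 TPM 63.1% stood below 0, and among all genes 45.3%. HNRNPA1 stood at 1868 and 1372 TPM, and HNRNPA2B1 at 791 and 634 TPM. Their differences of -0.44 and -0.32 were smaller in size than that of PKM.

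The deposited table also holds entries that are copies of a member or overlap it. The processed copies and near-identical genes named after a member were TPI1P2 (1.93 and 1.13 TPM), TPI1P3 (0.07 and 0 TPM), PGAM4 (0.06 and 0 TPM) and PGAM1P5 (0 in both). Many more copies of GAPDH and other members are known in the genome and were not analysed here, and reads that such copies share with the genes cannot be told apart in these values. Short overlapping entries were SPSB2 at TPI1 (12.4 and 15.7 TPM), and ENO1-AS1 (1.94 and 2.58 TPM) and MIR6728 (0 TPM) at ENO1. Whether the libraries keep strand is not given in the sources used here, so reads of ENO1 and its antisense partner may be mixed. Entries whose listed interval runs over 500000 bases, so that it spans distant loci, also overlap members. ALDOA lies inside 12 of these, none above 36.9 TPM. The 4 over PGK1 reached 37.4 TPM under high and 31.2 TPM under low glucose, and the 8 over ENO1 reached 56.2 and 97.0 TPM. Where the transcripts of these entries lie within the intervals was not analysed here.

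The genes with the closest pair of levels were found by distance in log2(TPM + 1) over the 2 libraries, among compared genes. Closest to ALDOA was MYL12B (975 and 743 TPM, distance 0.0038), to GPI was ATL3 (128 and 109.6 TPM) and to PGK1 was POLR2E (154 and 122 TPM). PGAM1 lay closest to FDPS, an enzyme of cholesterol synthesis (491 and 286 TPM), and PKM closest to TUBA1C, an alpha tubulin (720 and 466 TPM). GAPDH had no close neighbour: the nearest, ACTB, stood at 3853 and 3344 TPM, at a distance of 0.32.

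**Figure D4:**
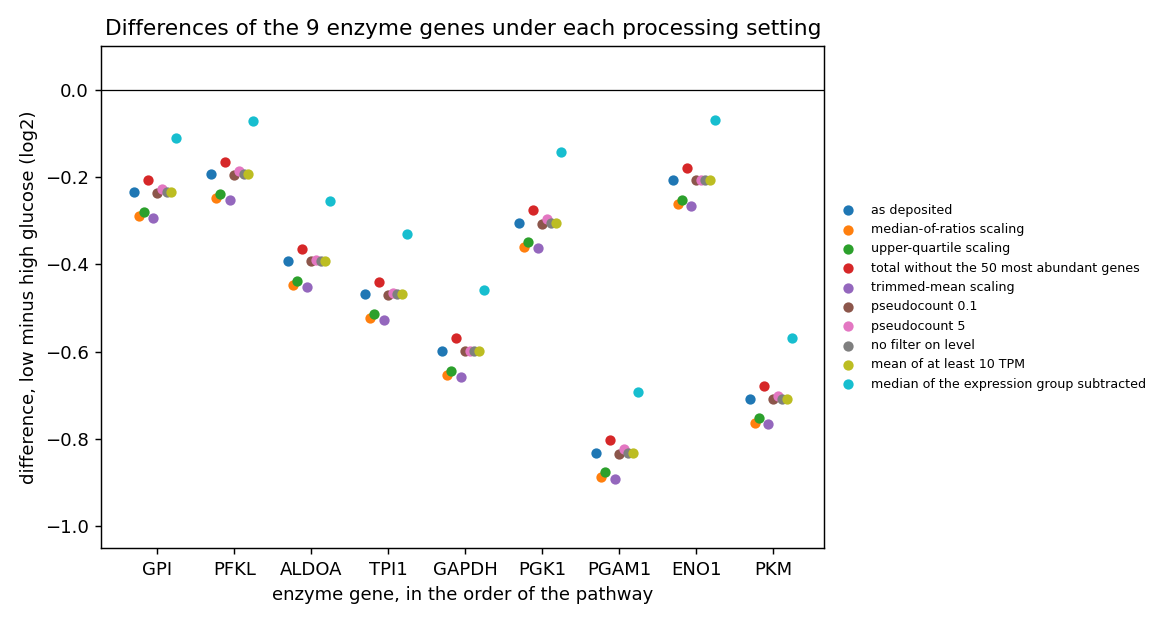
Difference of each enzyme gene, low minus high glucose on the log2 scale, as deposited and under 9 alternatives of scaling, pseudocount, filter and centring (colours). All points lie below 0. Subtracting the median of the expression group gives the values nearest to 0, down to -0.07 for ENO1 and PFKL.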

How the data were processed

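Total RNA of trypsinized cells was sequenced, per the labels' protocols, as 1 library per medium. The deposited TPM values have 2 decimals, with the unit named per the file headers. The submitters' processing notes name cutadapt, RSEM 1.2.21 and hg19; for the aligner, the annotation and the reads per library no source used here gives a value, so depth and counting error are unknown. RSEM divides reads that map to several genes between them.

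Genes with a mean of at least 1 TPM entered the comparison, which subtracts log2(TPM + 1) of high from that of low glucose over the whole table, with 1.2-fold, 1.5-fold and 2-fold rules and no test. The members and lists were chosen with earlier results of these data known. Named were the 9 members, the compared isozymes, the nearest genes and the overlapping or copied entries. Per list, the 2 most abundant compared genes and those past 2-fold with at least 10 TPM were also named. PFKP, LDHB and the isozymes at or near 0 were added after their values were seen. The markers FGB, TF, PTPRC and CD3E were also named outside this rule. 1 planned isozyme is not reported here. The nearest gene of 6 members is given, and the other nearest genes that the rule names are left out. Motif searches used RefSeq windows on GRCh38.p14, and no coordinates were converted. Calculations used Python 3.11.15, numpy 2.4.6 and pandas 2.3.3. The 2-fold rule and the scalings were tested on simulated data with changes larger than 2-fold. The noise of those data was chosen and not estimated from these libraries, which have no replicate. How often the rule errs in the real data therefore cannot be read from that simulation. The 1.2-fold and 1.5-fold rules were not tested on simulated data.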

Additional observations from a re-analysis of the deposited data

How the results depend on the processing

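Alternatives were 4 scalings (median of ratios, upper quartile, trimmed mean, and a total that leaves out the top 50 genes), other pseudocounts (0.1 and 5), no filter, a mean of at least 10 TPM, and, chosen after the data were seen, subtraction of the median of each of 20 expression groups and the median without GAPDH. All 81 member differences under the first 9 of these kept their sign and stayed within 2-fold. The settings without a filter and with a mean of at least 10 TPM leave the members' own values unchanged, so their part of this count was fixed in advance. Subtraction by expression group moved the median of the 9 members from -0.39 to -0.25 and the count past 1.5-fold from 3 to 1. The count past 1.2-fold, 6 as deposited, was 7 with median-of-ratios and upper-quartile scaling, 8 with the trimmed mean and 4 with that subtraction. The median of all genes lay between -0.0032 and 0.076 under the scalings. Over all genes, 151 were past 2-fold lower and 502 higher; with a pseudocount of 5 these were 79 and 234, and at 10 TPM or more 293 were higher. At 1.2-fold they were 3063 and 4335, at 1.5-fold 835 and 1786, and at 3-fold 22 and 119. Adding copies to TPI1 and PGAM1 changed no direction. No paired analysis was possible because each medium has 1 library, and for the same reason none could be left out.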

Other observations

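GAPDH and PGK1 are often used as reference genes in expression assays, so their values are set here beside 15 other genes used in that way. Of these 15, 8 stood below and 7 above 0, with a median of -0.03, and none was past 2-fold. Of all genes, 45.3% stood below 0, 1.10% were past 2-fold lower and 3.65% past 2-fold higher. Relative to GAPDH, 14 of the 15 were higher in low glucose, with a median ratio of 1.48 and a range from 0.971 to 2.34. PPIA (966 and 619 TPM, difference -0.64) was the exception, named after its values were seen. Most genes were higher relative to GAPDH, as only 5.60% of all genes compared had a difference as negative as its own (9.44% of those of at least 100 TPM). ACTB, a cytoskeletal actin, stood at 3853 and 3344 TPM, and its ratio to GAPDH was 0.810 in high and 1.07 in low glucose. EEF1A1, a translation elongation factor, stood at 5777 and 4526 TPM. Relative to PGK1, 12 of the 15 were higher, with a median ratio of 1.21. A difference as negative as that of PGK1 was found for 19.4% of all genes compared and for 33.6% of those of at least 100 TPM. A low to high glucose ratio expressed relative to GAPDH is 1.51 times the same ratio of TPM.

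The nearest compared genes on the chromosome did not share one direction with the members. GAPDH lies between NCAPD2, a condensin subunit gene (134 and 79.8 TPM, difference -0.75), and IFFO1 (30.9 and 28.0 TPM, -0.14). Beside TPI1 lie USP5 (86.1 and 64.7 TPM, -0.41) and SPSB2 (0.32). PKM lies between GRAMD2 (1.28 and 0.75 TPM, -0.38) and PARP6 (35.2 and 70.3 TPM, 0.98). PGAM1 lies between RRP12 (27.4 and 41.5 TPM, 0.58) and EXOSC1 (41.1 and 40.5 TPM, -0.02). These neighbours were looked at after the members' values were seen, and those of the other members are not given.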
